A study of Mus musculus with 14 samples.

Results

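Tuft cell genes were followed in the jejunum of 14 mice, 7 with LRH-1 K289R and 7 with wild-type LRH-1 (WT), with 1 Affymetrix whole-transcript array per mouse. A set of 10 genes was chosen by name: Dclk1, Trpm5, Pou2f3, Il25, Gfi1b, Rgs13, Alox5, Ptgs1, Avil and Sh2d6. Of the 10, 9 were measured under 1 gene symbol, on 10 probe sets, among 22180 genes on 41345 probe sets in all, and Ptgs1 is not analysed here. Both groups were 19 to 21 weeks old, fed ad libitum and killed at 7 am, and they were set against each other to ask what changes when the lysine of LRH-1 that can carry the small modifier SUMO is an arginine. LRH-1 is the nuclear receptor encoded by Nr5a2 and acts in gut, liver and pancreas. Strain, sex and whether K289R mice carried 1 or both altered alleles were not stated in the labels. Whole pieces of jejunum were used, so the values are those of a mixture of epithelium, muscle, immune cells and nerves.

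Tuft cells are rare chemosensory cells of the gut epithelium. They sense parasites and microbial products through receptors coupled to a taste-type cascade that ends in the cation channel Trpm5. They release the cytokine interleukin 25, which drives group 2 innate lymphoid cells to make interleukin 13, and interleukin 13 in turn pushes crypt progenitors towards tuft and goblet cells. They also make prostaglandins and leukotrienes. In bulk tissue, fewer tuft cells and less RNA per tuft cell cannot be told apart.

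The arrays had median intensities of 168 to 174, and how they were scaled was not stated, with correlations between arrays of 0.979 to 0.994. The mean of 10 epithelial genes, such as Sis, Lct and Apoa4, ran from 12.95 to 13.05 in K289R on the log2 scale. In WT it ran from 12.96 to 13.04. This shows epithelium in every piece but not which gut segment a piece came from. Of 6 liver genes 3 passed the filter on dim genes, and the albumin gene Alb averaged 6.94 in K289R and 6.95 in WT. Fabp6, a gene of the ileum, was above a log2 level of 8 on K289R replicates 2 and 7 and on WT replicates 1 and 6. It was at 10.71 and 9.91 on those K289R arrays and at 12.52 and 9.18 on those WT arrays. All other arrays lay between 6.09 and 6.63. Values without these 4 arrays are given for some of the differences and correlations, and not for all that moved.

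The promoters of Rgs13, Avil, Trpm5 and Sh2d6 are shown because these genes make up the 2 pairs that passed in the correlations that follow. Each window holds 250 bases before and 50 bases after the transcription start, 5′ to 3′ in the direction of the gene, from RefSeq on GRCm38.p6. The windows lie at chr1:144177323-144177622 on the minus strand for Rgs13, chr10:127000459-127000758 on the plus strand for Avil, chr7:143094593-143094892 on the minus strand for Trpm5 and chr6:72519987-72520286 on the minus strand for Sh2d6. Capitals mark matches, on either strand, to ATGCAAA, the core of the octamer bound by POU factors such as Pou2f3, or to CAAGGNC, the core of the element bound by LRH-1.
Rgs13: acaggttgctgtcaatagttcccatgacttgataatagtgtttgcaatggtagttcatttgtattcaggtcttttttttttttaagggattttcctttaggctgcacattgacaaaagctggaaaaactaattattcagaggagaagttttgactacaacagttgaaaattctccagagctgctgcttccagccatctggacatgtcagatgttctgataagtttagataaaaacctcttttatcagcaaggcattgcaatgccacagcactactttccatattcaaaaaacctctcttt
Avil: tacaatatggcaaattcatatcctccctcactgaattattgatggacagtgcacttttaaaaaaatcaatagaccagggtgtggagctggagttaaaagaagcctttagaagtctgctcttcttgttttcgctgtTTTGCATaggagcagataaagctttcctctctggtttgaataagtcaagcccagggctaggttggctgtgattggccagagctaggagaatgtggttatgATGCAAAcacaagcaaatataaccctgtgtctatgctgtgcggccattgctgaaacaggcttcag
Trpm5: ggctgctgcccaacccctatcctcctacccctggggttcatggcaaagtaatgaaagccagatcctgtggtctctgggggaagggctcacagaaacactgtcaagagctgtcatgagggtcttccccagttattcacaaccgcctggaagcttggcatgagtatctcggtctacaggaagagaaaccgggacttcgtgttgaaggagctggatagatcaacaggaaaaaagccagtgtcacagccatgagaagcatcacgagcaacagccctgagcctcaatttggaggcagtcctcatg
Sh2d6: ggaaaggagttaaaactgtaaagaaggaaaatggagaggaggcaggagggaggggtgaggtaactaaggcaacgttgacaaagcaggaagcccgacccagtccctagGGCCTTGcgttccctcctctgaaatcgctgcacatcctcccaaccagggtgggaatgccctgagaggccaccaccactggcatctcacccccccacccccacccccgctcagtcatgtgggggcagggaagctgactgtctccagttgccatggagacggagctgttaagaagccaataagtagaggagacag
Of the 10 chosen genes, 8 had a window, with 9 windows in all. ATGCAAA occurred in Avil alone among them, in 2 places at positions −115 to −109 and −15 to −9 from the start, and was found in 4.63% of all 32851 promoter windows. CAAGGNC occurred in Sh2d6, at positions −143 to −137, and in Alox5, at positions −130 to −124, against 17.8% of all windows. The 2 motifs overlapped nowhere in these windows, and a match is a description of letters only.

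Between the genotypes no tuft cell gene passed the threshold for a difference. Of 18010 genes tested with limma, 8 passed an adjusted p of 0.05 (Benjamini-Hochberg over all genes tested), a share of 0.0444%, and 0 of the 9 tuft cell genes were among them. An unadjusted p under 0.05 was reached by 1528 genes, or 8.48%, and by 0 of the 9. For 30 genes, or 0.167%, the K289R arrays did not overlap the WT arrays, and for all 9 tuft cell genes they overlapped. The median difference of the 9 genes, K289R minus WT on the log2 scale, was −0.021, with 3 genes higher and 6 lower in K289R, while the median of all genes tested was −0.0039. All 9 genes passed the filter on dim genes, which was a mean log2 intensity of at least 6.25.

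**Figure D1:**
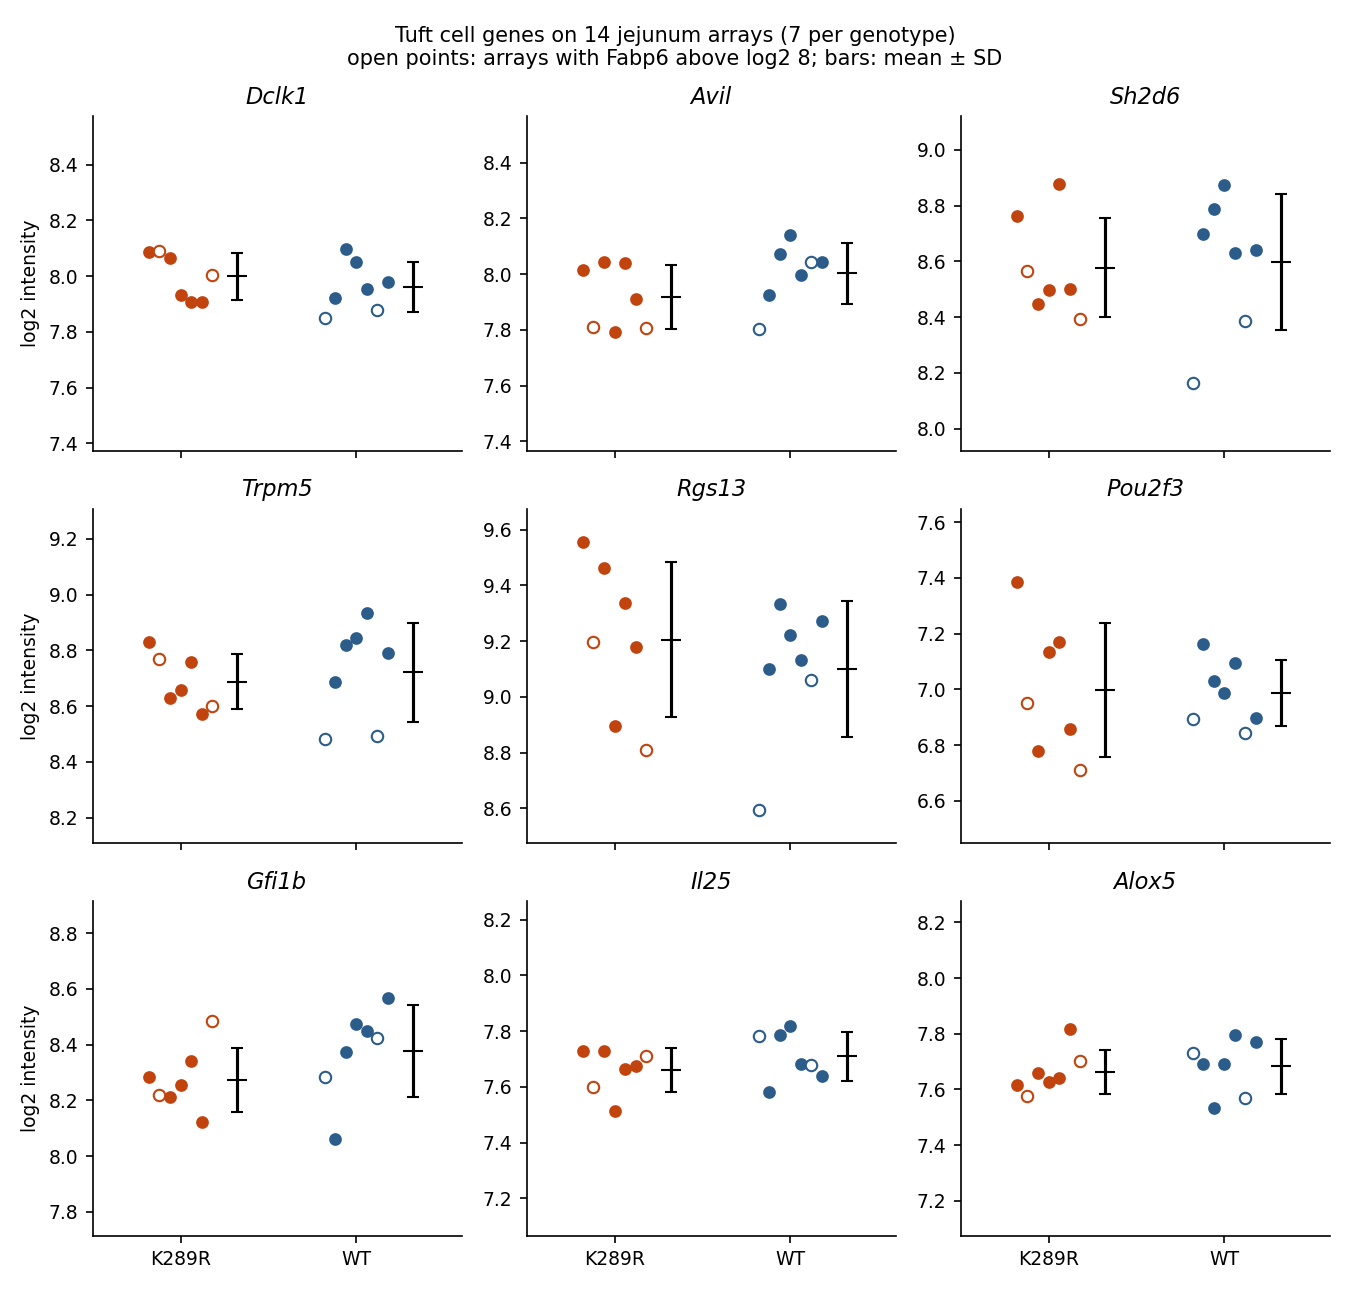
Log2 intensity of 9 tuft cell genes on each array, with K289R left of WT in every panel, 1 point per mouse, open points for the 4 arrays with Fabp6 above log2 8, and the mean ± SD (n = 7) as a bar. The 2 genotypes overlap in every panel, and WT replicate 1 (leftmost WT point) is the lowest WT point for Dclk1, Avil, Sh2d6, Trpm5 and Rgs13.

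The transcription factors of the list did not pass. Pou2f3, the POU factor without which mice lack tuft cells, had a lowest, median and highest log2 intensity of 6.71, 6.95 and 7.39 in K289R and of 6.84, 6.99 and 7.16 in WT. Its means were 7.00 ± 0.24 in K289R and 6.99 ± 0.12 in WT (SD, n = 7 each), and the difference was 0.01 (SE 0.092, 95% interval −0.18 to 0.21, limma adjusted p = 0.984). K289R replicate 1 was the highest of all 14 arrays and K289R replicate 7 the lowest, so the K289R mice spanned the whole WT range and more. Gfi1b, a zinc-finger repressor that marks tuft cells in the epithelium and megakaryocytes and red cell precursors elsewhere, ran from 8.12 through a median of 8.26 to 8.49 in K289R and from 8.06 through 8.42 to 8.57 in WT. It was the member with the largest negative difference, −0.10 (SE 0.073, 95% interval −0.26 to 0.05, limma adjusted p = 0.703). Only 1 of 7 K289R arrays lay above the WT mean for Gfi1b, yet the lowest array of all, WT replicate 2, was a WT one.

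The chemosensory channel and the structural markers did not pass either. Trpm5, the channel that depolarises the cell after receptor activation, had values of 8.57, 8.66 and 8.83 in K289R and of 8.48, 8.79 and 8.94 in WT (lowest, median and highest). Its difference was −0.03 (SE 0.073, 95% interval −0.19 to 0.12, limma adjusted p = 0.911). Without the 4 arrays with Fabp6 signal the difference of Trpm5 was −0.13 (SE 0.067, limma unadjusted p = 0.0811, adjusted p = 0.704), its lowest p in any refit. The WT arrays were spread more widely, with SDs of 0.10 in K289R and 0.18 in WT, a difference in spread that was not tested. Dclk1, a microtubule-binding kinase and the usual tuft cell marker, which is also expressed in neurons, lay between 7.91 and 8.09 in K289R (median 8.005) and between 7.85 and 8.10 in WT (median 7.96). The difference of Dclk1 was 0.04 (SE 0.052, 95% interval −0.07 to 0.15, limma adjusted p = 0.856). Avil, the actin-binding protein advillin of the tuft cell's long rootlets, had values of 7.79, 7.91 and 8.04 in K289R and of 7.80, 8.04 and 8.14 in WT. Its difference was −0.09 (SE 0.062, 95% interval −0.22 to 0.04, limma adjusted p = 0.704), with 3 of 7 K289R arrays above the WT mean.

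Among the signalling genes, Rgs13, which encodes a regulator that shortens G protein signalling and is also known from mast cells and germinal centre B cells, varied most. Its lowest, median and highest values were 8.81, 9.20 and 9.56 in K289R and 8.59, 9.13 and 9.33 in WT. The difference was 0.10 (SE 0.123, 95% interval −0.15 to 0.36, limma adjusted p = 0.821), the largest positive one of the 9 and the one with the widest interval. WT replicate 1 was the lowest of the 14 arrays and K289R replicate 1 the highest. Without WT replicate 1 the difference of Rgs13 was 0.020, and with the smooth muscle list mean as a covariate 0.26 (SE 0.150, limma adjusted p = 0.495). Sh2d6, an SH2 domain adaptor gene, lay between 8.39 and 8.88 in K289R (median 8.50) and between 8.16 and 8.87 in WT (median 8.64). For Sh2d6 the difference was −0.02 (SE 0.102, 95% interval −0.24 to 0.20, limma adjusted p = 0.968), and WT replicate 1 was again the lowest array. Without the 4 arrays with Fabp6 signal it was −0.11 (SE 0.090, limma adjusted p = 0.754).

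The secreted signal and the leukotriene enzyme completed the set. Il25, the cytokine gene, lay within a narrow band of 7.51 to 7.73 in K289R (median 7.67) and 7.58 to 7.82 in WT (median 7.68). Its difference was −0.05 (SE 0.051, 95% interval −0.16 to 0.06, limma adjusted p = 0.793). Alox5, the 5-lipoxygenase that opens leukotriene synthesis and is also a gene of myeloid and mast cells, had values of 7.58, 7.64 and 7.82 in K289R and of 7.53, 7.69 and 7.80 in WT on its brighter probe set. The difference was −0.02 (SE 0.053, 95% interval −0.13 to 0.09, limma adjusted p = 0.928). On a second, dimmer probe set of Alox5 the difference was 0.0047 (SE 0.062, 95% interval −0.13 to 0.13, limma adjusted p = 0.988 with all probe sets as the unit). Over all 9 genes the intervals stayed between −0.26 and 0.36, and these bounds are what 7 arrays a genotype allow.

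**Figure D2:**
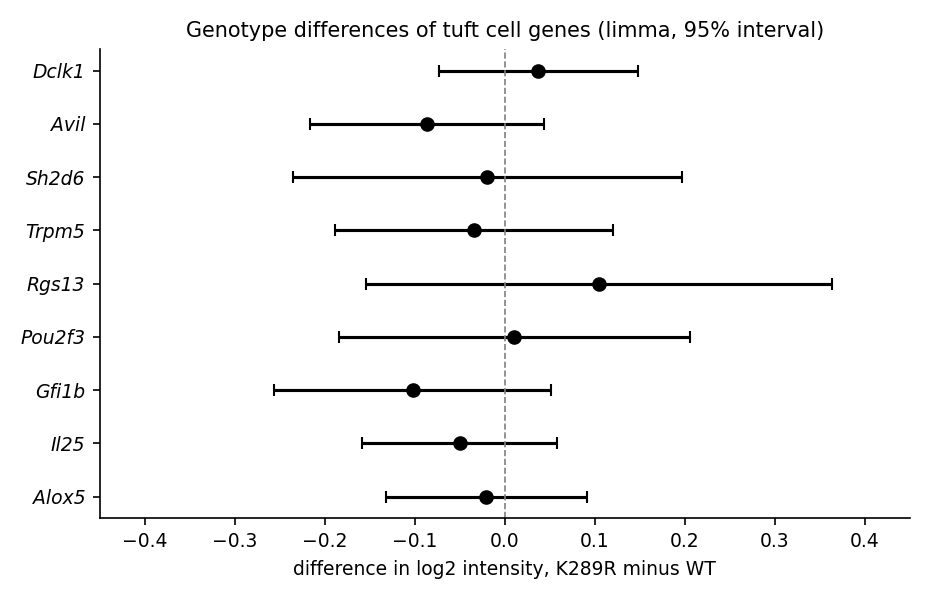
Difference in log2 intensity between K289R and WT for 9 tuft cell genes, as the limma estimate (point) with its 95% interval (bar). Every interval includes 0, and that of Rgs13, from −0.15 to 0.36, is the widest.

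Rgs13 lies on chromosome 1 near Nr5a2, the gene that was altered, and is the single chosen gene within 10 Mb of it. In the order of tested genes it stood 21 places from Nr5a2. Of its 10 nearest tested neighbours, 5 on each side, Glrx2, a mitochondrial glutaredoxin gene, rose by 0.36 (SE 0.056, limma adjusted p = 0.0260). The others did not pass, and over all 18010 genes 8 passed, a share of 0.0444%. Of 141 tested genes within 10 Mb of Nr5a2, 24 had an unadjusted limma p under 0.05, beside 8.48% of all genes. With genes within 20 Mb of Nr5a2 left out, 1 gene of the whole table passed. Rgs2, the neighbour next to Rgs13 and a related regulator gene, differed by 0.16 (SE 0.057, unadjusted p = 0.0119, limma adjusted p = 0.436). Rgs1 differed by 0.15 (SE 0.170), Pla2g4a by 0.14 (SE 0.109), Uchl5 by 0.13 (SE 0.111), Odr4 by 0.10, Ro60 by 0.088, Ptgs2 by 0.083 (SE 0.272), B3galt2 by 0.00055 and Ptgs2os by −0.0022. The part of this neighbourhood in the value of Rgs13 was not tested.

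Further genes of tuft cell function were taken from 5 lists with 59 genes, of which 54 were tested. Of the 54, 32 were higher and 22 lower in K289R, the median difference was 0.023, 0 passed limma's adjusted threshold, and 5 had an unadjusted p under 0.05, a share of 9.26% beside 8.48% of all genes. Of 9 tested genes of the taste-type cascade, 5 were higher and 4 lower. Gnat3, the taste G protein gustducin, differed by 0.16 (SE 0.087, adjusted p = 0.609 by limma), Itpr3, the calcium channel of the cascade, by −0.071 (SE 0.055) and the G protein subunit gene Gnb3 by −0.082 (SE 0.070). Of 7 genes of eicosanoid synthesis, 4 were higher and 3 lower. Ltc4s, which makes leukotriene C4, averaged 7.92 ± 0.10 in K289R and 8.10 ± 0.11 in WT (SD, n = 7 each), a difference of −0.19 (SE 0.059, unadjusted p = 0.00571, limma adjusted p = 0.392). Pla2g4a, the phospholipase that frees arachidonic acid, differed by 0.14 and Hpgds, a prostaglandin D2 synthase, by 0.053 (SE 0.074).

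The remaining 3 lists held signalling genes, transcription factors and surface or other markers. Of 15 signalling genes 9 were higher and 6 lower, and besides Rgs2 the kinase gene Bmx (−0.14, SE 0.072) and the lipid phosphatase gene Inpp5d (0.19, SE 0.096) had the lowest p values. Of 9 transcription factors 5 were higher and 4 lower, with the homeobox gene Hmx3 at −0.12 (SE 0.048, unadjusted p = 0.0200), the secretory lineage factor gene Atoh1 at 0.12 (SE 0.092) and the Notch target Hes1 at −0.092 (SE 0.086). Of 14 surface and other genes 9 were higher and 5 lower, with Cbr3 at 0.21 (SE 0.062, unadjusted p = 0.00316), Kctd12 at 0.24 (SE 0.089, unadjusted p = 0.0143) and Ly6g6f at −0.11 (SE 0.069). None of these passed the adjusted threshold of limma.

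Genes of the type 2 immune circuit around the tuft cell did not pass either. Of 18 listed genes 13 were tested, 8 higher and 5 lower in K289R with a median of 0.077. Beside 8.48% of all genes, 2 of the 13 (15.4%) had an unadjusted limma p under 0.05. These were the leukotriene receptor gene Cysltr1, with 7.52 ± 0.22 in K289R and 7.23 ± 0.21 in WT (SD, n = 7 each), a difference of 0.29 (SE 0.105, limma adjusted p = 0.444), and Il4ra, the receptor subunit shared by interleukins 4 and 13, with a difference of 0.17 (SE 0.067, limma adjusted p = 0.491). Stat6, which carries that receptor's signal, was at −0.11 (SE 0.055). Il13 itself averaged 7.41 ± 0.12 in K289R and 7.42 ± 0.12 in WT (SD, n = 7 each).

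Although no tuft cell gene passed between the genotypes, some tuft cell genes were correlated from mouse to mouse over all 14 arrays. After each genotype's mean had been subtracted, all 36 pairs of the 9 genes were compared over the 14 arrays by a permutation test (2-sided, 100000 resamples within genotype, Benjamini-Hochberg over 36 pairs). In 27 pairs r was above 0, 9 pairs had an unadjusted p under 0.05, and 2 pairs passed an adjusted p of 0.05. They were Rgs13 with Avil and Trpm5 with Sh2d6. No pair passed with Spearman's rho or in either genotype alone. The same held on fewer arrays, without WT replicate 1, without the 2 farthest arrays or without the 4 arrays with Fabp6 signal. The 9 pairs all came from Rgs13, Avil, Sh2d6, Trpm5, Dclk1 and Pou2f3.

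**Figure D3:**
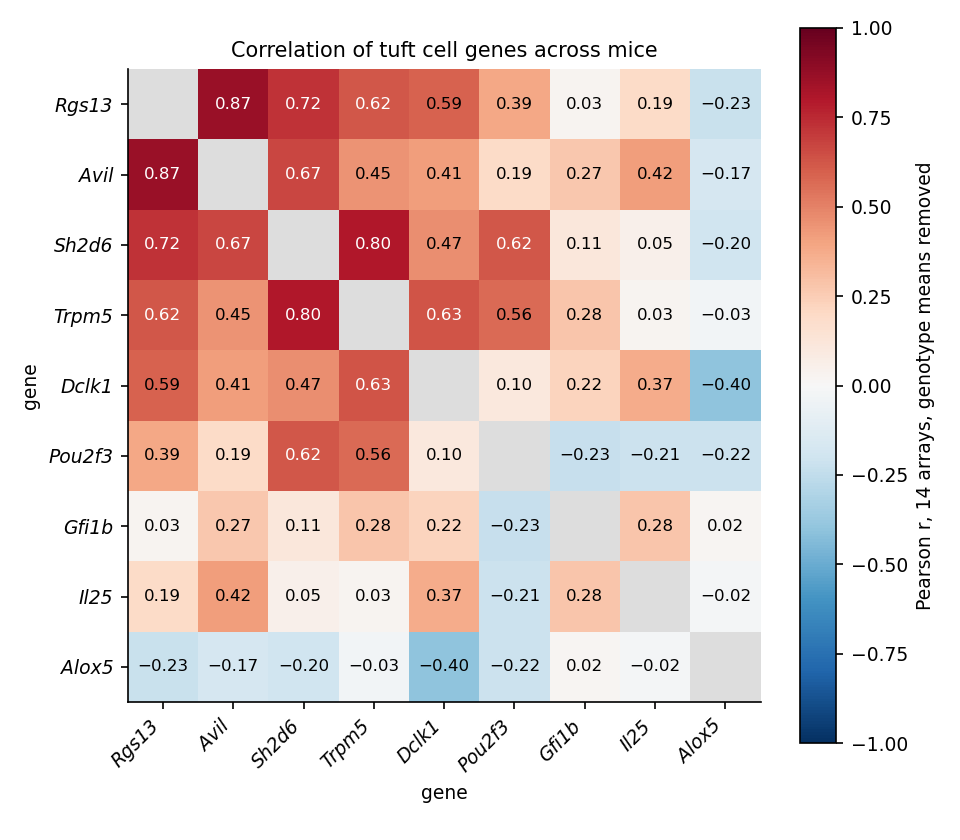
Pearson r between 9 tuft cell genes over 14 arrays after subtracting genotype means, in a colour scale from −1 to 1. Rgs13, Avil, Sh2d6 and Trpm5 have r from 0.45 to 0.87 with each other, the lowest for Trpm5 with Avil (unadjusted permutation p = 0.113). Dclk1 reaches 0.63 with Trpm5 and Pou2f3 0.62 with Sh2d6, so these 4 genes are not set apart from them. Gfi1b, Il25 and the brighter Alox5 probe set have r of at most 0.42 with any other gene on all 14 arrays. Without the 4 arrays with Fabp6 signal Il25 had r = 0.88 with Avil, and the dimmer Alox5 probe set, not drawn, had r = 0.88 with Sh2d6 on all arrays.

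Rgs13 and Avil had r = 0.87 (permutation p = 0.00031, adjusted p = 0.0112) and Spearman's rho = 0.81 (permutation p = 0.00217, adjusted p = 0.0637). Within the genotypes r was 0.87 in K289R (exact permutation p = 0.0159, n = 7) and 0.86 in WT (exact permutation p = 0.0206, n = 7), although neither passed after adjustment over the 36 pairs. Without the 2 arrays farthest from the median of Rgs13 r was 0.78 (permutation p = 0.00905, adjusted p = 0.326). Without the 4 arrays with Fabp6 signal it was 0.84 (exact permutation p = 0.00729, adjusted p = 0.116). Leaving out WT replicate 1 gave r = 0.80 with an adjusted permutation p of 0.111, and the pair passed on each of the 13 occasions when another array was left out. Among all 18009 other tested genes, Avil ranked 4 by r to Rgs13, and Rgs13 ranked 21 by r to Avil.

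Trpm5 and Sh2d6 had r = 0.80 (permutation p = 0.00194, adjusted p = 0.0349) and rho = 0.74 (permutation p = 0.00531, adjusted p = 0.0637). Within the genotypes r was 0.78 in K289R (exact permutation p = 0.0365, adjusted p = 0.29, n = 7) and 0.82 in WT (exact permutation p = 0.0294, adjusted p = 0.202, n = 7). This pair rested more on a few arrays, since r was 0.55 without the 2 arrays farthest from the median of Trpm5 (permutation p = 0.0846) and 0.54 without the 4 arrays with Fabp6 signal (exact permutation p = 0.149). With 1 array left out at a time, r lay between 0.71 and 0.88, and the pair passed 5 times out of 14. By r to Trpm5, Sh2d6 ranked 8 among all other tested genes, and by r to Sh2d6, Trpm5 ranked 110.

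**Figure D4:**
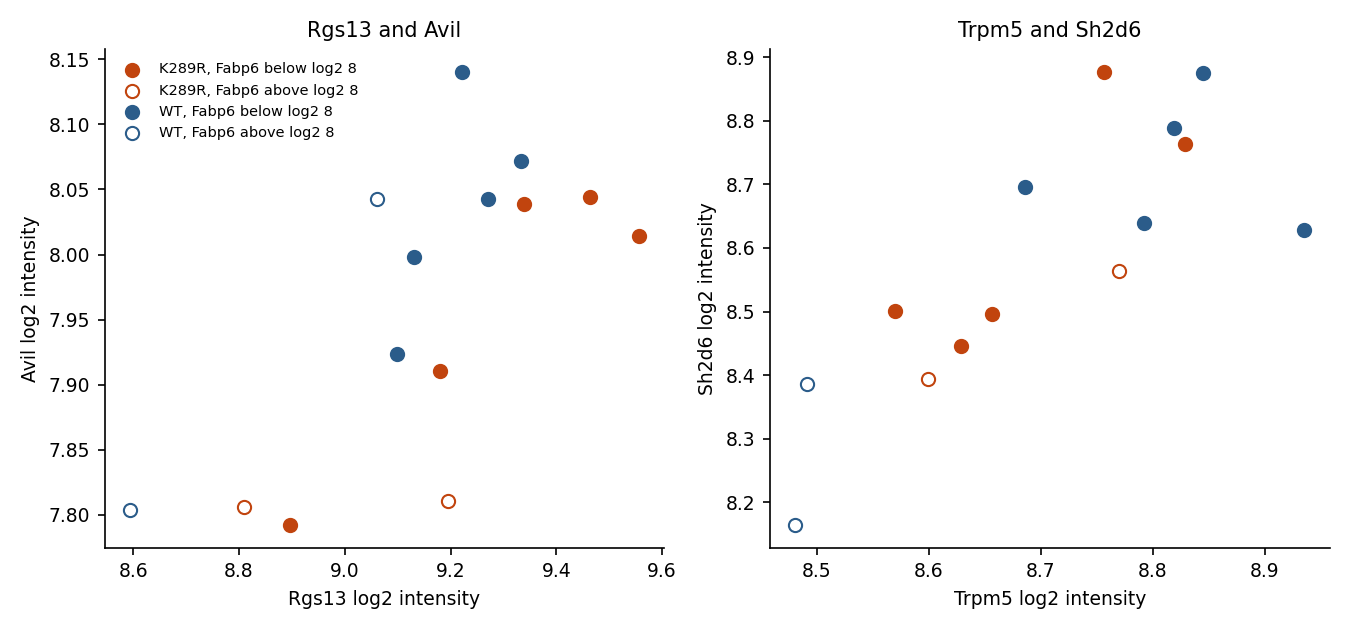
Log2 intensity of Avil against Rgs13 (left) and of Sh2d6 against Trpm5 (right), 1 point per mouse, coloured by genotype, with open points for arrays with Fabp6 above log2 8. Both genotypes run from lower left to upper right, and WT replicate 1 lies at the lower left of both plots, with Rgs13 at 8.59 and Sh2d6 at 8.16.

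The other 7 pairs with an unadjusted p under 0.05 did not pass after adjustment. Rgs13 with Sh2d6 had r = 0.72 (permutation p = 0.00469, adjusted p = 0.0563) and Avil with Sh2d6 r = 0.67 (adjusted permutation p = 0.0713). Pou2f3 had r = 0.62 with Sh2d6 and r = 0.56 with Trpm5, each with an adjusted permutation p of 0.0713. Dclk1 had r = 0.63 with Trpm5 (adjusted permutation p = 0.104) and r = 0.59 with Rgs13 (adjusted permutation p = 0.146). Without the 4 arrays with Fabp6 signal several of these were lower, with r = 0.40 for Rgs13 and Sh2d6 (exact permutation p = 0.412), 0.39 for Trpm5 and Rgs13, against 0.62 on all arrays, 0.35 for Dclk1 and Trpm5 and 0.54 for Avil and Sh2d6. Others were close to or above their value on all arrays, with 0.58 for Pou2f3 and Sh2d6, 0.57 for Pou2f3 and Trpm5 and 0.70 for Dclk1 and Rgs13. Pairs outside these 7 also moved without those arrays, in both directions. Pou2f3 with Rgs13 went from r = 0.39 to 0.026 and Dclk1 with Sh2d6 from 0.47 to 0.18, while Il25 with Sh2d6 went from 0.051 to 0.42. Dclk1 with Sh2d6 had r = −0.12 in K289R (exact permutation p = 0.770, n = 7) and r = 0.87 in WT (exact permutation p = 0.0117, n = 7), and the difference between the genotypes was not tested. The mean of Rgs13, Avil, Sh2d6 and Trpm5 was 8.40 on K289R replicate 7, the lowest K289R array, and 8.26 on WT replicate 1 and 8.495 on WT replicate 6, the lowest WT arrays. Those 3 arrays were among the 4 with Fabp6 signal, while the fourth, K289R replicate 2, was at 8.59 and within the range of the others. K289R replicate 4, with Fabp6 at 6.35, was also low with 8.46.

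Il25, Gfi1b and the brighter Alox5 probe set had low r with the others over all 14 arrays. In the 21 pairs that held at least 1 of them r ran from −0.40 to 0.42 with a median of 0.028, and the smallest unadjusted permutation p was 0.157. Without the 4 arrays with Fabp6 signal this differed for Il25, which had r = 0.88 with Avil (exact permutation p = 0.00278, adjusted p = 0.1), the smallest p of the 36 pairs there, r = 0.74 with Rgs13 (exact permutation p = 0.00965, adjusted p = 0.116) and r = 0.73 with Dclk1 (exact permutation p = 0.0230, adjusted p = 0.207). Gfi1b then had r = 0.66 with Trpm5 (exact permutation p = 0.0417, adjusted p = 0.25). Il25 and Alox5 were also among the members with the least spread between mice of 1 genotype, with SDs of 0.083 and 0.089 that exceeded those of 12.4% and 16.0% of all tested genes. Rgs13 and Sh2d6 had SDs of 0.261 and 0.213, above 94.9% and 89.8% of tested genes, and Dclk1 one of 0.087, above 14.7%.

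For Alox5 the outcome depended on the probe set. Between the 2 probe sets r across mice was −0.096 (permutation p = 0.753), and the brighter of them was the one used above. The dimmer probe set, examined after the values were seen, had r = 0.88 with Sh2d6 (permutation p = 0.00025, adjusted p = 0.00558, rho = 0.86), r = 0.83 with Rgs13 (permutation p = 0.00075, adjusted p = 0.00900, rho = 0.72) and r = 0.79 with Trpm5 (permutation p = 0.00128, adjusted p = 0.0115, rho = 0.80). Within the genotypes its r with Sh2d6 was 0.75 in K289R and 0.98 in WT, and without the 2 farthest arrays it was 0.79. Without the 4 arrays with Fabp6 signal its r was 0.69 with Sh2d6, 0.63 with Rgs13 and 0.54 with Trpm5. With this probe set in place of the first, 10 of the 36 pairs passed. Its own pairs among them were those with Sh2d6, Rgs13 and Trpm5. The rest were pairs without Alox5, whose r and unadjusted p were unchanged. Their adjusted p fell only because the small Alox5 p values entered the adjustment. For Trpm5 with Sh2d6 the adjusted permutation p went from 0.0349 to 0.0140 at the same r of 0.80. Which of the 2 probe sets follows the Alox5 transcript was not tested.

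The genes most like the tuft cell set were sought by r to the mean of the 9 standardised genes over the 14 arrays, genotype means removed, which describes likeness and is no test. Of 18001 other genes, 227 had r of at least 0.7 and 261 had r of at most −0.7. The 10 highest were Lrrc56 (0.91), Cyb561d1 (0.88), Zfp169 (0.87), Mir378b (0.86), Slc9a3 (0.86), Elmod2 (0.86), 5930403L14Rik (0.85), Meak7 (0.85), Slc46a1 (0.84) and Aqp8 (0.84). Slc9a3, the brush border sodium-proton exchanger, and Slc46a1, the folate transporter of the proximal small intestine, are enterocyte genes rather than tuft cell genes. To Dclk1 alone the highest were Dlx6os1 and Zfp936 (both 0.84), Kcnj11 and Hnf4aos (both 0.82) and Tecpr1 (0.81).

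Some listed tuft cell genes ranked high by the same measure. Sh2d7, an adaptor gene akin to Sh2d6, had r = 0.83 and rank 18. Siglecf, a sialic acid receptor of tuft cells and eosinophils, had r = 0.80 and rank 33, Bmx r = 0.80 and rank 36, and Pik3r5, a regulatory subunit of a phosphoinositide kinase, r = 0.72 and rank 163. The leukotriene genes Ltc4s and Alox5ap had 0.62 and 0.59, with ranks 564 and 713. They were the highest of 7 eicosanoid genes, of which 3 were above 0 and 4 below. The median of those 7 was −0.21, and Ptges was lowest at −0.58. As a whole the 54 further tuft genes were not shifted upwards, with a median of −0.049 and 25 of 54 above 0, against a median of 0.011 over all genes. At the low end were Krt18, a keratin shared with other epithelial cells, at −0.78 and Inpp5j at −0.78.

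**Figure D5:**
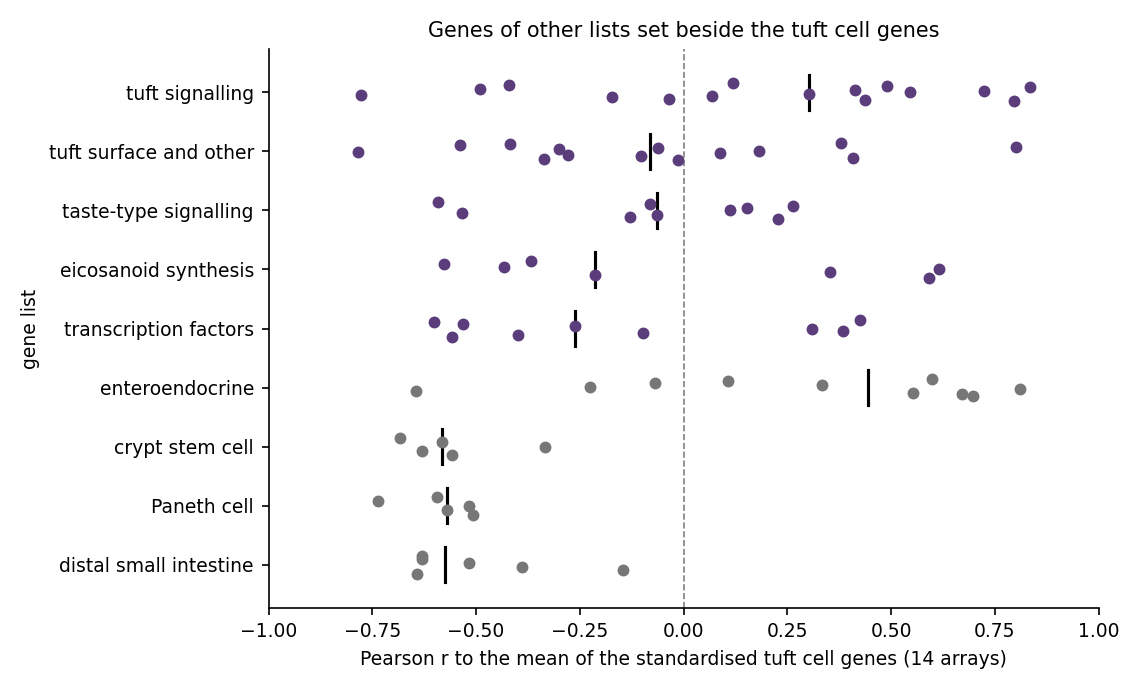
Pearson r of the genes of 9 lists to the mean of the 9 standardised tuft cell genes over 14 arrays, genotype means removed, 1 point per gene, with the list median as a line. Tuft signalling genes run from −0.78 (Inpp5j) to 0.83 (Sh2d7), with 10 of 15 above 0 and a median of 0.30. The medians of the other tuft lists lie below 0, from −0.26 (transcription factors) to −0.064 (taste-type signalling). All genes of the crypt stem cell, Paneth cell and distal small intestine lists lie below 0.

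Markers of other cell types and of gut position were set beside the tuft cell genes by the same measure. All 6 distal small intestine genes had negative r, from −0.64 for Fabp6 to −0.15 for Fgf15, as had all 5 crypt stem cell genes (−0.68 for Smoc2 to −0.34 for Olfm4) and all 5 Paneth cell genes (−0.74 for Lyz1 to −0.51 for Ang4). Of 10 enteroendocrine genes 7 were above 0, with the proximal hormone gene Gip at 0.81, Cck at 0.70 and the distal hormone gene Gcg at −0.64. The distal list mean ran from 8.16 to 10.29 in K289R and from 8.20 to 10.51 in WT, with WT replicate 1 highest, and of its genes Fgf15, an ileal hormone gene, had the lowest p, with a difference of 1.64 (SE 0.405, limma adjusted p = 0.227). The crypt list mean ran from 9.61 to 10.15 in K289R and from 9.84 to 10.16 in WT. The part of gut position and of crypt content in the covariation of the tuft cell genes was not tested beyond the values without the 4 arrays with Fabp6 signal.

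Genes of other cells that can express members of the set were also measured. Of 12 mast cell genes 6 passed the filter on dim genes, and the list mean ran from 6.84 to 7.33 in K289R and from 6.89 to 7.13 in WT, with r = −0.35 to the tuft cell mean. Kit, the stem cell factor receptor of mast cells and gut pacemaker cells, had the lowest p of that list, with a difference of 0.22 (SE 0.075, limma adjusted p = 0.413). The 8 tested B cell genes had list means of 7.22 to 8.43 in K289R and 7.27 to 8.15 in WT, with r = 0.12, and the 5 tested germinal centre genes, with list means of 8.62 to 8.98 in K289R and 8.62 to 8.91 in WT, had r = 0.32. The 5 tested platelet and megakaryocyte genes had r = 0.43, with each gene above 0, and the 2 tested eosinophil genes r = 0.33. Of the 5 further tuft lists, only the signalling list had a mean with positive r, at 0.40. The others were at −0.20 (taste-type cascade), −0.29 (eicosanoid synthesis), −0.40 (transcription factors) and −0.34 (surface and other genes). The 8 tested myeloid genes, with list means of 8.59 to 9.22 in K289R and 8.59 to 9.14 in WT, had r = −0.32 and the 7 tested neuronal genes r = −0.35. The part of these cells in the values of the tuft cell genes was not tested. Of 10 smooth muscle genes 9 were higher in K289R and 0 passed limma's adjusted threshold. An unadjusted limma p under 0.05 was reached by 7 of the 10, or 70%, beside 8.48% of all genes. The differences were 0.30 for Synm (SE 0.066), 0.19 for Acta2 (SE 0.048) and 0.27 for Myh11 (SE 0.076). Of 10 enteroendocrine genes 2 were higher and 8 lower in K289R and 0 passed, with −0.29 for Chga (SE 0.082), −0.22 for Chgb (SE 0.102) and −0.28 for Tph1 (SE 0.134). The smooth muscle list mean ran from 10.20 to 10.71 in K289R and from 10.23 to 10.42 in WT and had r = −0.32 to the tuft cell mean. With that list mean as a covariate 0 of the 9 tuft cell genes passed.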

How the data were processed

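Total RNA of 14 jejunum samples was extracted with Trizol, amplified from 100 ng and labelled with biotin, per the labels' protocols. The authors deposited intensity values on a linear scale, from 7.40 to 20050.3, made with Affymetrix Expression Console per the submitters' processing notes. Neither the version nor the summarisation, background and scaling steps were stated there. The deposited columns have close medians, from 168 to 174, so a shift common to all genes cannot be seen. Their lower quartiles run from 73.6 to 77.0 and their upper quartiles from 413 to 450. Background left in the values shrinks differences of dim genes.

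Intensities were log2-transformed. Probe sets with 1 gene symbol in the platform annotation (23521) were used, 1814 with several symbols and 16010 unnamed ones were not, and a gene was represented by its brightest probe set. Genes whose mean lay below log2 6.25, the 25th percentile over probe sets, were left out, leaving 18010. K289R was set against WT with limma 3.58.1 in R 4.3.3 (lmFit, eBayes, 2-sided, no covariate, Benjamini-Hochberg over all genes tested). The limma step and the permutation step were tested on simulated data. Samples were grouped by their titles, which call them biological replicates. Replicate numbers did not pair the samples, as the correlation of same-numbered deviations ran from −0.15 to 0.17. The number of arrays limits the precision. The members, lists, motifs and tests were chosen with earlier results of these data known. Named genes are the members, the genes of each list past the threshold or else up to 3 with the lowest p (none for several cell type lists), the 10 and 5 most alike genes, and the neighbours of Rgs13. Il13, Alb and list genes named for their likeness to the members, such as Sh2d7, Krt18 or Gip, were picked after their values were seen. Alternatives covered normalization, filter, probe set choice, moderation, array weights, a replicate block, covariates, gut segment and left-out arrays.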

Additional observations from a re-analysis of the deposited data

Results flagged for a closer look

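An array stood far from the other 6 of its genotype in 13 of 194 comparisons, made for 97 named genes in both genotypes, where chance flags about 1 in 20. Of the 9 chosen tuft cell genes measured, Rgs13 alone was among the 13. It was at 8.59 on WT replicate 1, against 9.06 to 9.33 on the other WT arrays. On that array Slc10a2, the ileal bile acid transporter gene, was at 10.52 against at most 7.20 on the other WT arrays, and Cdh1 was at 12.56, above the others. Among WT arrays Ptgs2 was also at 9.84 on replicate 2 and B3galt2, a neighbour of Rgs13, at 6.53 on replicate 6. K289R replicate 3 was low for Atoh1 (10.25) and high for Kctd12 (9.89) and for the Rgs13 neighbour Uchl5 (10.47). K289R replicate 5 was low for Mki67 (10.14) and Olfm4 (11.99) and high for Cyp2e1 (9.83). The mast cell protease gene Mcpt1 was at 8.19 on K289R replicate 7, against at most 6.73 on the other K289R arrays, and Prg2 at 6.36 on K289R replicate 1. The cause of these values was not tested.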

How the results depend on the processing

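The count of tuft cell genes past the threshold was 0 in each of 28 refits with limma and at an adjusted p under 0.1, and 0 of the 9 had an unadjusted p under 0.05. An unadjusted p under 0.05 was reached by Gfi1b without WT replicate 2 (0.0231) and by Gfi1b and Avil with array weights (0.0299 and 0.0463), with adjusted p values of at least 0.364 in all refits of those 2 genes. Gfi1b, Avil and Rgs13 kept their direction in every refit that tested them, though Rgs13 ran from 0.020 (without WT replicate 1) to 0.170 with 1 array left out and was 0.26 with the smooth muscle covariate. Adjusted for the smooth muscle mean, Alox5 was at 0.0083, Il25 at 0.017 and Pou2f3 at −0.021, and without the 4 arrays with Fabp6 signal Dclk1 was at −0.022, Trpm5 at −0.13 and Sh2d6 at −0.11. With 1 array left out the differences ran from −0.054 to 0.059 for Pou2f3, from −0.092 to 0.027 for Sh2d6 and from −0.074 to 0.0015 for Trpm5, which changed sign, and the median over the 9 genes from −0.055 to −0.0017. With the replicate number as a block the median difference was −0.021 and 0 tuft cell genes passed, with 0 genes of all 18010 against 8. Genes of the whole table that passed numbered 4 to 14 with 1 array left out, 14 with array weights, 12 with quantile normalization, with the filter at the median or with the mast cell covariate, 5 with the B cell covariate or without the Fabp6 arrays, and 1 without genes within 20 Mb of Nr5a2. Of the 36 pairs 2 passed, against 0 with Spearman's rho, 0 in K289R alone, 0 in WT alone, 0 without the 2 farthest arrays, 0 without the 4 Fabp6 arrays, 0 to 5 with 1 array left out (0 without WT replicate 1, 5 without K289R replicate 3), and 10 with the second Alox5 probe set, an alternative chosen after seeing the data. With the second Alox5 probe set, pairs without Alox5 kept their r and unadjusted p, and some passed through the adjustment alone. Fits on fewer arrays have fewer samples, and beyond that the cause was not tested. Pou2f3 has no value under the filter at the median, and Rgs13 none without the genes near Nr5a2. How far probe signals lie above background is unknown, since the table gives no detection calls.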
